A study of Mus musculus with 11 samples.

Results

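The 35 genes described here encode enzymes that make, reclaim or break down purine and pyrimidine nucleotides. A gene was measured by the probe set that carries its symbol alone, and where several did, by the one with the highest mean over all 11 arrays. This gave values for 34 of the 35 genes, among 18194 genes measured in the same way. Impdh2 was not analysed here. By role, the measured genes were 10 of purine synthesis, 2 of phosphoribosyl pyrophosphate (PRPP) supply, 5 of pyrimidine synthesis, 5 of deoxynucleotide and thymidylate synthesis, 1 nucleoside diphosphate kinase, 6 of salvage and 5 of breakdown.

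The study set T cells lacking cereblon against wild-type T cells, naive and after activation. Crbn encodes cereblon, which selects substrates for a cullin-based ubiquitin ligase and binds thalidomide. T cells were purified from spleens of female mice, aged 3 to 4 months, by removing other cells with magnetic beads. One-colour Affymetrix arrays were then hybridised, 1 per sample. Activated knockout cells came from C57BL6 crbn-/- mice and were stimulated for 12 hours in complete RPMI-10 medium with plate-bound anti-CD3 at 5 µg/ml and soluble anti-CD28 at 1 µg/ml (3 arrays). Naive knockout cells came from C57BL6 crbn-/- mice and were not stimulated (3 arrays). Activated wild-type cells came from C57BL6 wild-type mice and had the same stimulation (2 arrays), and naive wild-type cells came from C57BL6 wild-type mice (3 arrays). The labels list no cells cultured without stimulation, so activation and culture cannot be told apart. The sources used here do not say which part of Crbn was removed, or whether same-numbered arrays came from 1 animal.

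A nucleotide can be built de novo or reclaimed. Purine synthesis assembles the base on PRPP and ends in AMP and GMP, pyrimidine synthesis joins a finished ring to PRPP and yields UTP and CTP, and salvage enzymes reattach free bases or phosphorylate nucleosides. Ribonucleotide reductase turns ribonucleotides into the deoxynucleotides of DNA. Resting T cells rely largely on salvage, and proliferating T cells depend on de novo synthesis. That dependence is the basis of several immunosuppressive drugs, including mycophenolate, which inhibits IMP dehydrogenase, and leflunomide, whose metabolite inhibits dihydroorotate dehydrogenase.

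Values are log2 RMA levels, so a difference of 1 is a 2-fold change. Levels of different probe sets cannot be set against each other, and only changes of 1 probe set between arrays are compared. Column medians of the 11 arrays lay between 5.84 and 5.89. Pairs of arrays within a group had Pearson correlations of 0.994 to 0.998 across genes, and genes are not replicates. The number of arrays limits the precision. Crbn stood at 8.97, 9.07 and 8.91 in naive knockout cells and at 10.06, 10.21 and 10.09 in naive wild-type cells. It stood at 8.70, 8.77 and 8.58 in activated knockout cells and at 9.71 and 9.47 in activated wild-type cells, so the genotypes did not overlap in either state. The T cell receptor gene Cd3e lay between 11.14 and 11.97 on all arrays, and 10 of 11 listed T cell markers were measured, with medians of 10.58 to 11.88 per array. Markers of other cells were also seen: the immunoglobulin gene Ighm read 11.75 to 12.38 in activated and 13.39 to 13.68 in naive cells. The naive arrays differed in erythroid markers. The median of 10 such genes was 7.68, 6.55 and 6.47 in naive knockout cells and 9.52, 8.13 and 7.34 in naive wild-type cells, and the first array was the highest in each genotype. The first naive knockout array also had the highest median of 7 B cell markers, 9.02, against 6.92 to 8.15 on the other arrays. In these bulk samples fewer cells of a type and less RNA per cell cannot be told apart.

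Activation changed most of the 34 measured genes in both genotypes, and most of the changes were rises. A gene is said to have risen or fallen when its limma p, adjusted by the Benjamini-Hochberg method over all 18194 genes, was under 0.05. In knockout cells 21 of 34 genes rose and 6 fell, while 20.7% of all genes rose and 22.4% fell. In wild-type cells 17 of 34 rose and 8 fell, while 20.2% of all genes rose and 20.9% fell. Rises of at least 2-fold were seen for 10 genes in knockout cells, against 6.02% of all genes, and for 9 genes in wild-type cells, against 3.7% of all genes. Falls of at least 2-fold were seen for 3 genes in knockout cells, against 5.86%, and for 5 in wild-type cells, against 5.61%. The median difference of the 34 genes was 0.69 log2 in knockout and 0.27 log2 in wild-type cells, and that of all genes was -0.03 and 0.06 log2. The 17 genes that rose in wild-type cells rose in knockout cells too, and 5 genes fell in both. Rises or falls shared by both genotypes covered 16.0% and 18.3% of all genes. Rrm2, Uck1 and Nt5c3 fell in wild-type cells without passing in knockout cells. Atic, Dtymk, Dut and Rrm1 rose, and Nt5e fell, in knockout cells without passing in wild-type cells. Of these 8 genes 0 passed the test of the difference between the genotypes' responses, with a smallest limma adjusted p of 0.26. Impdh1, Adssl1, Tyms and Ada passed in neither genotype. Beside these changes, 9 of 10 T cell markers and 5 of 7 B cell markers fell in each genotype, and their part in the changes was not tested.

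**Figure D1:**
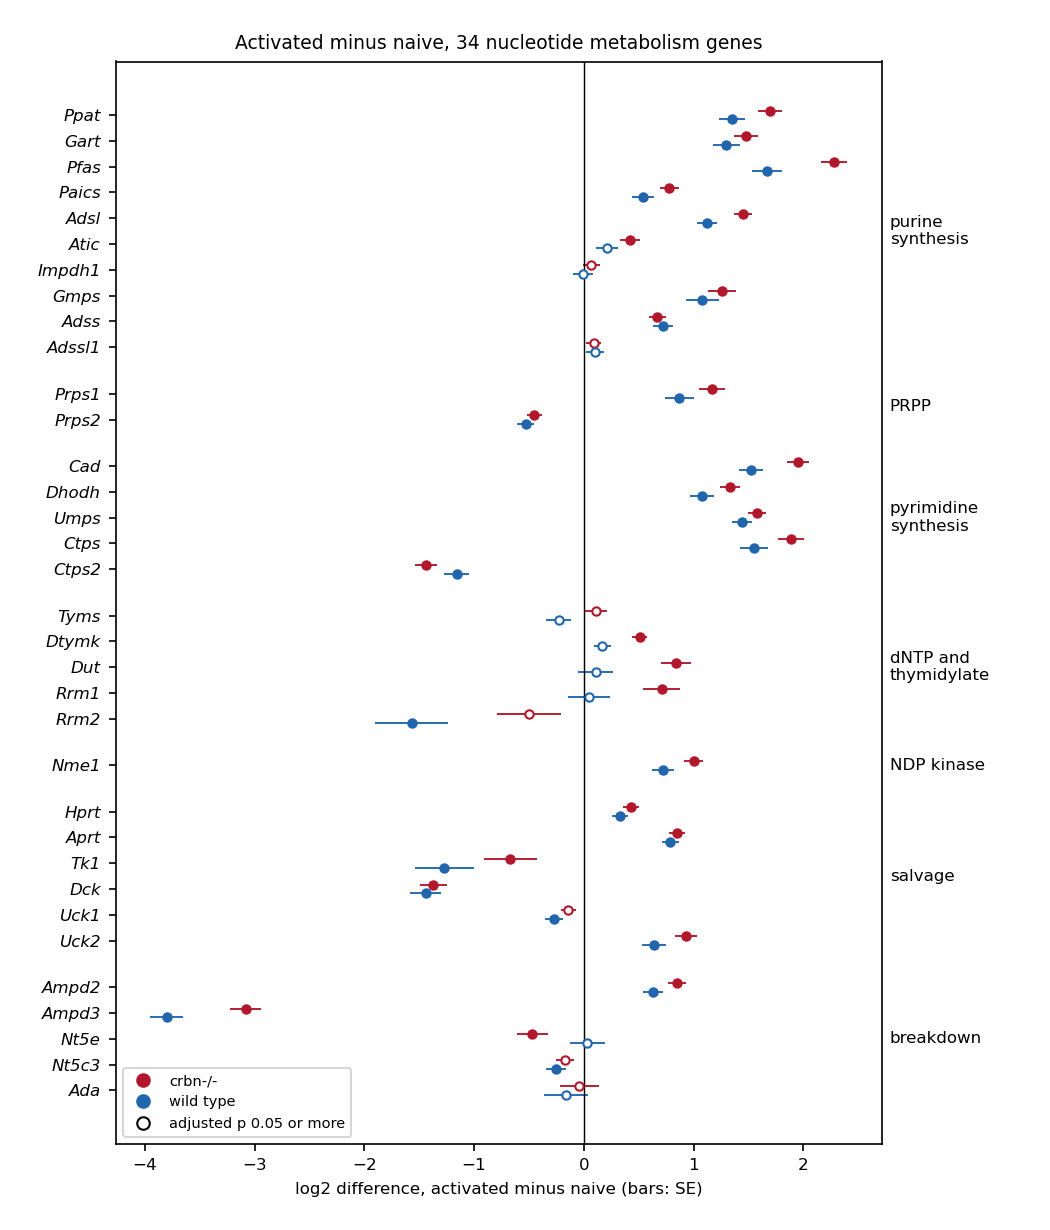
Activated minus naive log2 differences (x axis) of the 34 measured genes, ordered by role, in knockout (crbn-/-, red) and wild-type (blue) cells, with bars of 1 SE; open points had an adjusted p of 0.05 or more. Most purine and pyrimidine synthesis genes lie to the right of 0, Ctps2 and Prps2 lie to the left, and Ampd3 lies farthest to the left at -3.08 in knockout and -3.80 in wild-type cells.

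Purine synthesis genes rose together. In knockout cells 8 of 10 rose with a median difference of 1.02 log2, and in wild-type cells 7 of 10 rose with a median of 0.90 log2. Of all genes 20.7% rose in knockout and 20.2% in wild-type cells. None of the 10 fell. Ppat, the amidotransferase that commits PRPP to the pathway (probe set 1452831_s_at), read 10.25, 10.24 and 10.30 in activated and 8.66, 8.49 and 8.56 in naive knockout cells. In wild-type cells it read 10.07 and 10.36 in activated and 9.14, 8.76 and 8.70 in naive cells. Every activated array lay above every naive array. Ppat rose by 1.70 log2 (SE 0.11, 3.24-fold, limma adjusted p = 4.6e-08) in knockout cells and by 1.35 log2 (SE 0.12, 2.55-fold, limma adjusted p = 1.7e-06) in wild-type cells. Pfas, which makes the amidine intermediate of the ring, had the largest rise of the measured purine synthesis genes. It read 10.37, 10.24 and 10.36 in activated and 8.13, 8.11 and 7.88 in naive knockout cells. It read 10.10 and 10.38 in activated and 8.84, 8.50 and 8.36 in naive wild-type cells. The differences were 2.28 log2 (SE 0.12, 4.85-fold, limma adjusted p = 7.2e-09) in knockout and 1.67 log2 (SE 0.14, 3.19-fold, limma adjusted p = 5.6e-07) in wild-type cells.

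Ppat and Paics lie on opposite strands, with annotated spans that overlap by 277 bases at their starts, and both rose. Paics, a bifunctional carboxylase and ligase, read 11.96, 11.79 and 11.81 in activated and 11.18, 11.08 and 10.96 in naive knockout cells, and 11.87 and 11.71 in activated and 11.36, 11.21 and 11.17 in naive wild-type cells. Its groups did not overlap in either genotype, but its rise was smaller, 0.78 log2 (SE 0.09, 1.72-fold, limma adjusted p = 4.9e-06) in knockout and 0.54 log2 (SE 0.10, 1.46-fold, limma adjusted p = 4.4e-04) in wild-type cells. The RefSeq windows of 300 bases at the 2 starts, 250 bases before to 50 after (build GRCm38.p6), are shown because the pair shares this stretch of chromosome 5. They are chr5:76951529-76951828 (minus strand) for Ppat and chr5:76951052-76951351 (plus strand) for Paics. Capitals mark the letters TTTCCCGC or TTTGGCGC, a motif of the E2F type, on either strand, and the E-box CACGTG, which reads the same on both strands.
Ppat: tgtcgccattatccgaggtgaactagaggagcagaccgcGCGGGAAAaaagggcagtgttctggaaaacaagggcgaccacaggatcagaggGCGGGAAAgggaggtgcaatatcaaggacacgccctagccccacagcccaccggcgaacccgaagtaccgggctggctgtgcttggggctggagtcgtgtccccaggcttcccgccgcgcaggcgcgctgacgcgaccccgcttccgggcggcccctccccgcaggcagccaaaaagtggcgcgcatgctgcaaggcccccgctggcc
Paics: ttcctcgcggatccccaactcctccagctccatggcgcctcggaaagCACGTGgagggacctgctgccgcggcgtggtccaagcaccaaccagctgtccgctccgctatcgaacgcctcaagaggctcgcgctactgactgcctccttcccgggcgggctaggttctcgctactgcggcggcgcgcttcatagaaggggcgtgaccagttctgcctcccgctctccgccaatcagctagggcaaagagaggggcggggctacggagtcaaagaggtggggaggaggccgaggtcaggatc
The E2F-type letters occur 2 times in the window of Ppat and the E-box once in that of Paics. The bases between the 2 windows, which are part of the overlap of the spans, lie in neither window and were not searched. Of the 33 genes with a window, 2 held the E2F-type letters (6.06%), against 1.8% of all 27025 genes with a window and 2.77% of the measured ones. The E-box was held by 7 of 33 (21.2%), against 8.09% of all genes with a window and 10.2% of the measured ones. Those 7 were Paics, Atic, Impdh2, Tyms, Dtymk, Nme1 and Ampd3. Paics and Nme1 rose in both genotypes, Atic and Dtymk rose in knockout cells without passing in wild-type cells, and Ampd3 fell in both. Tyms passed in neither genotype, and Impdh2 was not analysed. A link between the letters and the direction of change was not tested.

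The other enzymes of the ring and its branches rose by less than Pfas or did not pass. Gart, a trifunctional enzyme of the early steps, read 10.79, 10.82 and 10.81 in activated and 9.37, 9.29 and 9.31 in naive knockout cells, and 10.56 and 10.97 in activated and 9.66, 9.36 and 9.36 in naive wild-type cells. It rose by 1.48 log2 in knockout (limma adjusted p = 8.8e-08) and 1.30 in wild-type cells (limma adjusted p = 1.4e-06), with no overlap. Adsl, the lyase that acts both in the ring and on the way to AMP, read 10.82, 10.84 and 10.79 in activated and 9.34, 9.40 and 9.35 in naive knockout cells, and 10.60 and 10.79 in activated and 9.71, 9.57 and 9.45 in naive wild-type cells. Its rises were 1.45 log2 (SE 0.08, 2.74-fold, limma adjusted p = 9.2e-09) in knockout and 1.12 log2 (SE 0.09, 2.17-fold, limma adjusted p = 5.0e-07) in wild-type cells. Atic, which closes the ring to IMP, read 10.93, 10.85 and 10.82 in activated and 10.50, 10.43 and 10.39 in naive knockout cells, and 10.69 and 11.00 in activated and 10.76, 10.59 and 10.56 in naive wild-type cells. In wild-type cells the first activated array lay among the naive ones and the second above them. Atic rose in knockout cells, by 0.42 log2 (limma adjusted p = 0.0013), and did not pass in wild-type cells (0.21, limma adjusted p = 0.11). Without wild-type activated replicate 1 the wild-type difference was 0.37 (limma adjusted p = 0.014), and without replicate 2 it was 0.06. Its other probe set rose in both genotypes, by 0.85 in knockout and 0.54 in wild-type cells.

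At the branch from IMP, the last enzyme toward GMP and the enzyme that opens the way to AMP both rose. Gmps, GMP synthetase, read 10.85, 10.66 and 10.61 in activated and 9.61, 9.45 and 9.27 in naive knockout cells. It read 10.56 and 11.01 in activated and 9.91, 9.58 and 9.61 in naive wild-type cells. It rose by 1.26 log2 in knockout and 1.08 in wild-type cells (limma adjusted p = 2.8e-06 and 4.6e-05). Dimmer probe sets of Gmps, 1435656_at and 1455057_at, rose by 0.94 and 0.73 in knockout cells. In wild-type cells their differences were 0.39 and 0.29, and that of 1455057_at did not pass. Adss, the adenylosuccinate synthetase of most tissues, read 11.17, 11.02 and 11.06 in activated and 10.43, 10.42 and 10.39 in naive knockout cells, and 11.03 and 11.23 in activated and 10.51, 10.40 and 10.33 in naive wild-type cells. It rose by 0.67 and 0.72 log2 (limma adjusted p = 8.2e-06 and 1.8e-05) in knockout and wild-type cells. Adssl1, the muscle form, lay between 6.21 and 6.45 on all 11 arrays, and its differences were 0.09 (95% interval -0.07 to 0.24, limma adjusted p = 0.37) in knockout and 0.10 (95% interval -0.07 to 0.27, limma adjusted p = 0.37) in wild-type cells. Impdh1, 1 of the 2 IMP dehydrogenases, read 8.71 to 9.0 on all arrays, with differences of 0.07 (95% interval -0.10 to 0.24, limma adjusted p = 0.52) in knockout and -0.01 (95% interval -0.19 to 0.18, limma adjusted p = 0.97) in wild-type cells. The intervals of Adssl1 and Impdh1 lie far below the rises of Ppat and Pfas.

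The 2 PRPP synthetases moved in opposite directions by their brightest probe sets. Prps1 read 11.27, 11.16 and 10.98 in activated and 10.17, 9.94 and 9.80 in naive knockout cells, and 10.86 and 11.04 in activated and 10.31, 9.99 and 9.96 in naive wild-type cells. It rose by 1.17 log2 (SE 0.12, 2.25-fold, limma adjusted p = 2.7e-06) in knockout and by 0.87 log2 (SE 0.13, 1.82-fold, limma adjusted p = 1.6e-04) in wild-type cells, with no overlap. Prps2 read 10.55, 10.46 and 10.33 in activated and 10.92, 10.93 and 10.82 in naive knockout cells, and 10.36 and 10.36 in activated and 10.94, 10.86 and 10.87 in naive wild-type cells. It fell by 0.45 log2 in knockout and by 0.53 log2 in wild-type cells (limma adjusted p = 1.6e-04 and 1.3e-04). The direction of Prps2 depends on the probe set. A dimmer one, 1420637_at, rose by 0.43 in knockout and 0.28 in wild-type cells. The mean of its probe sets gave -0.03 in knockout and -0.13 in wild-type cells, with limma adjusted p-values of 0.75 and 0.18.

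All 3 enzymes of UMP synthesis rose. Cad carries the carbamoyl phosphate synthetase, transcarbamylase and dihydroorotase activities, and its probe set 1452830_s_at read 10.89, 10.95 and 10.99 in activated and 9.07, 8.96 and 8.96 in naive knockout cells. In wild-type cells it read 10.72 and 10.87 in activated and 9.47, 9.29 and 9.04 in naive cells. Activated arrays lay at least 1 log2 unit above naive ones in both genotypes. Cad rose by 1.95 log2 (SE 0.10, 3.87-fold, limma adjusted p = 4.5e-09) in knockout and 1.52 log2 (SE 0.11, 2.87-fold, limma adjusted p = 2.1e-07) in wild-type cells. Dhodh, the mitochondrial dihydroorotate dehydrogenase, read 9.07, 9.15 and 9.13 in activated and 7.84, 7.73 and 7.79 in naive knockout cells, and 8.86 and 9.22 in activated and 8.10, 7.92 and 7.86 in naive wild-type cells. It rose by 1.33 log2 (SE 0.09, 2.52-fold, limma adjusted p = 8.7e-08) in knockout and 1.08 log2 (SE 0.11, 2.12-fold, limma adjusted p = 2.7e-06) in wild-type cells. Umps makes UMP from orotate. It read 9.82, 9.77 and 9.72 in activated and 8.15, 8.17 and 8.24 in naive knockout cells, and 9.59 and 9.77 in activated and 8.40, 8.17 and 8.16 in naive wild-type cells. Its rises were 1.58 log2 (SE 0.08, 2.99-fold, limma adjusted p = 5.6e-09) in knockout and 1.44 log2 (SE 0.09, 2.71-fold, limma adjusted p = 7.9e-08) in wild-type cells. The groups of Dhodh and Umps did not overlap.

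**Figure D2:**
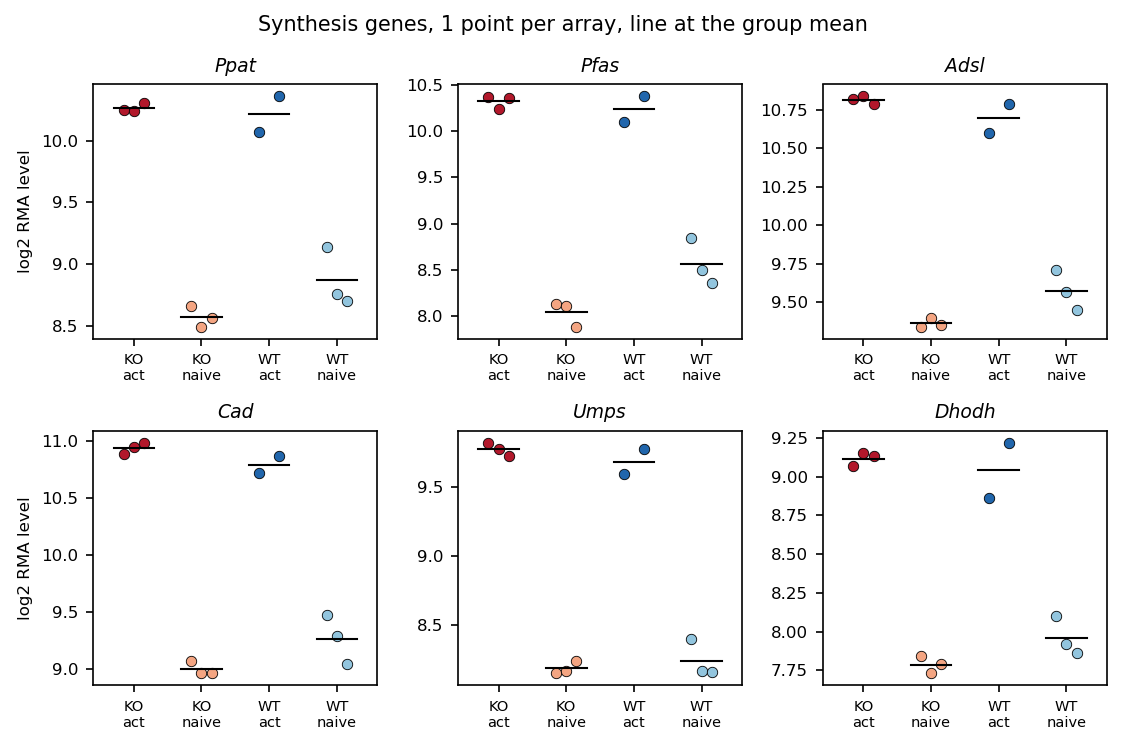
Log2 RMA levels (y axis, a separate scale in each panel) of 3 purine synthesis genes (Ppat, Pfas, Adsl) and 3 pyrimidine synthesis genes (Cad, Umps, Dhodh) on each array; points are arrays and lines are group means of activated (act) and naive knockout (KO, n = 3 and 3) and wild-type (WT, n = 2 and 3) cells. In every panel each activated array lies above each naive array of its genotype, and the 2 wild-type activated arrays lie farther apart than the 3 knockout activated ones.

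The 2 CTP synthetases, which aminate UTP to CTP, moved in opposite directions. Ctps (probe set 1416563_at), the form that dividing lymphocytes are known to need, read 10.53, 10.38 and 10.49 in activated and 8.70, 8.54 and 8.49 in naive knockout cells, and 10.23 and 10.64 in activated and 9.11, 8.77 and 8.78 in naive wild-type cells. Ctps2 (probe set 1448111_at) read 8.71, 8.97 and 8.68 in activated and 10.18, 10.18 and 10.32 in naive knockout cells, and 9.24 and 8.96 in activated and 10.22, 10.30 and 10.29 in naive wild-type cells. Activated arrays were all high for Ctps and all low for Ctps2, with no overlap with naive arrays. Ctps rose by 1.89 log2 (SE 0.12, 3.70-fold, limma adjusted p = 3.0e-08) in knockout and 1.55 log2 (SE 0.13, 2.92-fold, limma adjusted p = 9.1e-07) in wild-type cells. Ctps2 fell in both, with differences of -1.44 log2 (SE 0.10, 2.71-fold, limma adjusted p = 4.8e-08) in knockout and -1.16 log2 (SE 0.11, 2.24-fold, limma adjusted p = 1.6e-06) in wild-type cells. A dimmer probe set of Ctps2, 1457075_at, gave -0.43 in knockout and -0.54 in wild-type cells, and another, 1435759_at, at a mean level of 4.5, did not pass. The outermost RefSeq window listed for each gene is shown for this pair, chr4:120570227-120570526 (minus strand) for Ctps and chrX:162901310-162901609 (plus strand) for Ctps2. The annotated start of Ctps2 lies farther out than the start of the window listed for it. Capitals mark an NRF1-type motif, which reads the same on both strands.
Ctps: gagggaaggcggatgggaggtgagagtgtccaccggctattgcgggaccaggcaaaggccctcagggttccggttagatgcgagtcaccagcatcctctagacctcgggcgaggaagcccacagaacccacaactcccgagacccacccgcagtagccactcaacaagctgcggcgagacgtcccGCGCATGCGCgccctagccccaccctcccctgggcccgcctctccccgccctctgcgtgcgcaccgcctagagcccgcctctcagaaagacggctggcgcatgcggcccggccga
Ctps2: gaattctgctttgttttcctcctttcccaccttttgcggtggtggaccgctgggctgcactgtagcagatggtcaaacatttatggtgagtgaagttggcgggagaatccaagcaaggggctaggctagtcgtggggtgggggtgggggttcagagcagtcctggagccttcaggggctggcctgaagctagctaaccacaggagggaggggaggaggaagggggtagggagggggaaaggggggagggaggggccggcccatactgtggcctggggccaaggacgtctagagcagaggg
The window of Ctps held it once, and none of the 3 motifs searched is in the one shown for Ctps2. Of the 33 genes with a window 2 held the NRF1-type motif, Ctps and Uck1 (6.06%), against 1.07% of all genes with a window and 1.75% of the measured ones.

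Genes of deoxynucleotide and thymidylate synthesis gave a mixed picture that differed from array to array in naive cells. In knockout cells 3 of 5 rose and 0 fell, and in wild-type cells 0 rose and 1 fell. Of all genes 20.7% rose and 22.4% fell in knockout cells, and 20.2% rose and 20.9% fell in wild-type cells. Rrm2, the regulated subunit of ribonucleotide reductase, read 9.16, 9.19 and 8.62 in activated and 10.06, 9.47 and 8.93 in naive knockout cells. It read 8.76 and 9.12 in activated and 11.09, 10.47 and 9.95 in naive wild-type cells. In knockout cells the groups overlapped, and the difference of -0.50 log2 (SE 0.29, 1.41-fold, limma adjusted p = 0.21) did not pass. In wild-type cells they did not overlap, and Rrm2 fell with a difference of -1.57 log2 (SE 0.33, 2.96-fold, limma adjusted p = 0.0017). Without knockout naive replicate 3 the knockout difference was -0.77 (limma adjusted p = 0.05, below the threshold before rounding), and without replicate 1 it was -0.21. Rrm1, the large subunit, read 9.54, 9.59 and 9.44 in activated and 9.12, 8.76 and 8.57 in naive knockout cells, and 9.39 and 9.65 in activated and 9.89, 9.37 and 9.15 in naive wild-type cells. It rose in knockout cells by 0.71 log2 (SE 0.17, 1.63-fold, limma adjusted p = 0.0041). In wild-type cells the difference was 0.05 (95% interval -0.37 to 0.47, limma adjusted p = 0.87). Dut, the dUTPase that keeps uracil out of DNA, read 10.66, 10.80 and 10.62 in activated and 10.07, 9.80 and 9.69 in naive knockout cells, and 10.40 and 10.60 in activated and 10.76, 10.25 and 10.15 in naive wild-type cells. It rose in knockout cells by 0.84 log2 (SE 0.14, 1.79-fold, limma adjusted p = 2.8e-04). In wild-type cells the difference was 0.11 (95% interval -0.24 to 0.46, limma adjusted p = 0.62).

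In both genotypes the first naive array was the highest for Rrm2, Rrm1 and Dut, and it was also the highest for the erythroid markers given above. On activation 2 of 10 erythroid markers fell in knockout cells (median difference -0.42) and 7 of 10 in wild-type cells (median -2.10). Of 17 cell cycle genes 7 rose and 4 fell in knockout cells, and 6 rose and 8 fell in wild-type cells. The median of these 17 was 7.91, 7.70 and 7.33 in activated and 8.86, 8.29 and 8.11 in naive knockout cells. In wild-type cells it was 7.83 and 8.16 in activated and 9.47, 8.97 and 8.71 in naive cells. It does not stand for all 17. The median of 5 of them, Pcna, Mcm2, Mcm3, Mcm5 and Mcm6, was higher in activated cells. It was 12.01, 12.06 and 11.93 in activated and 11.05, 10.76 and 10.62 in naive knockout cells. In wild-type cells it was 11.95 and 12.0 in activated and 11.54, 11.16 and 10.98 in naive cells. Mki67 was lower, with means of 7.8 against 9.46 in knockout and 8.03 against 10.32 in wild-type cells. With both first naive arrays left out, an alternative added after the data were seen, the knockout differences were 0.95 for Dut, 0.86 for Rrm1 and -0.21 for Rrm2. The wild-type differences were then 0.30 for Dut (limma adjusted p = 0.038), 0.26 for Rrm1 and -1.27 for Rrm2. The part of other cells in these values was not tested beyond this.

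**Figure D3:**
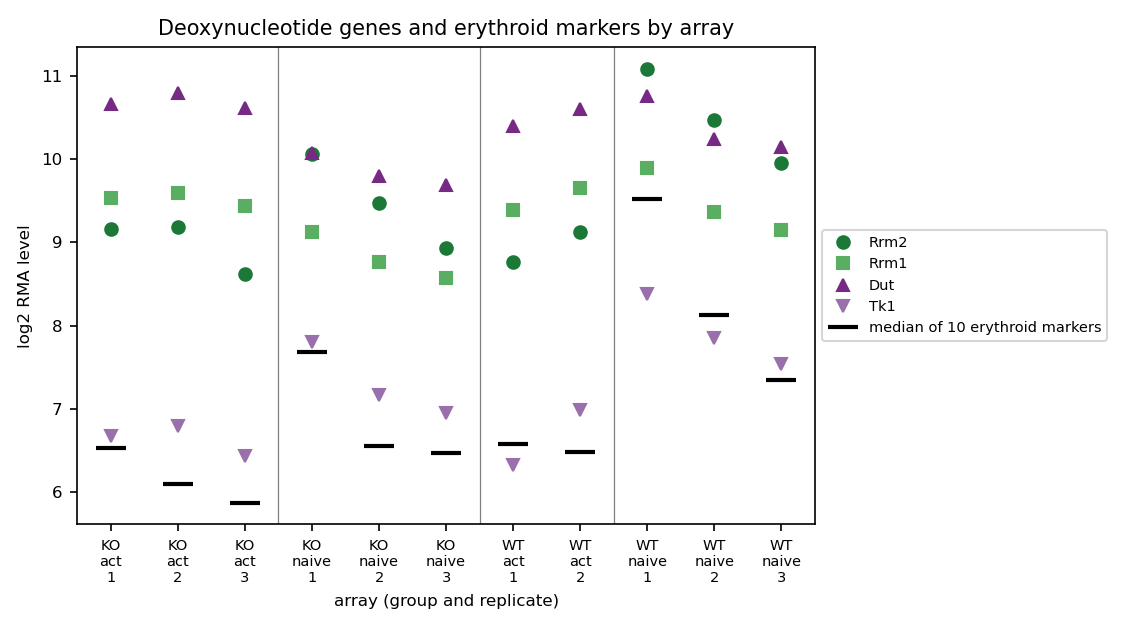
Log2 RMA levels (y axis) of Rrm2, Rrm1, Dut and Tk1 on each of the 11 arrays (x axis; KO knockout, WT wild type, act activated), with the median of 10 erythroid marker genes as black bars. In naive cells of each genotype the first array is the highest for all 4 genes and for the erythroid median, which reads 7.68 in knockout and 9.52 in wild-type cells on that array.

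Thymidylate itself was poorly covered. Dtymk, thymidylate kinase, read 10.59, 10.66 and 10.64 in activated and 10.13, 10.11 and 10.13 in naive knockout cells, and 10.54 and 10.49 in activated and 10.44, 10.40 and 10.20 in naive wild-type cells. It rose in knockout cells by 0.51 log2 (SE 0.07, 1.42-fold, limma adjusted p = 5.9e-05). In wild-type cells the difference of 0.17 (95% interval -0.01 to 0.35, limma adjusted p = 0.12) did not pass, although the groups did not overlap. Another of its probe sets, 1449116_a_at, rose in both, by 1.44 in knockout and 1.02 in wild-type cells. Tyms, thymidylate synthase, lay between 4.28 and 4.71 on all arrays. The lower quartile of an array was 4.57 to 4.68, so a signal above background is not shown, and its differences say little about the gene. Without wild-type naive replicate 2 its wild-type difference was -0.32 (limma adjusted p = 0.043).

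Nme1, a nucleoside diphosphate kinase that charges diphosphates to triphosphates, rose in both genotypes. It read 11.95, 11.87 and 11.84 in activated and 10.87, 10.96 and 10.83 in naive knockout cells, and 11.93 and 11.60 in activated and 11.09, 11.05 and 11.00 in naive wild-type cells. Activated and naive arrays did not overlap. The rise was 1.00 log2 (SE 0.09, 2.00-fold, limma adjusted p = 4.9e-07) in knockout and 0.72 log2 (SE 0.10, 1.64-fold, limma adjusted p = 4.5e-05) in wild-type cells. Its outermost listed window, chr11:93968223-93968522 (minus strand), is shown as the second E-box window of a gene that rose in both genotypes, with CACGTG in capitals.
Nme1: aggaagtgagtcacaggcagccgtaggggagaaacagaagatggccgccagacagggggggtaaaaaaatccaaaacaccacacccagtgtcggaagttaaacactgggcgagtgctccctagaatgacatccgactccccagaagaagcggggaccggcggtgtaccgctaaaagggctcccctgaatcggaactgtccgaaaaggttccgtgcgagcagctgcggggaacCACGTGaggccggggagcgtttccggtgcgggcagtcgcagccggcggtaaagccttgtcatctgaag

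Of the 6 salvage genes 3 rose and 2 fell in both genotypes, while 16.0% of all genes rose and 18.3% fell in both. The 2 transferases that reclaim bases were among those that rose. Aprt, which reclaims adenine, read 11.41, 11.32 and 11.38 in activated and 10.58, 10.53 and 10.44 in naive knockout cells, and 11.24 and 11.43 in activated and 10.55, 10.51 and 10.58 in naive wild-type cells. It rose by 0.85 log2 (SE 0.07, 1.81-fold, limma adjusted p = 3.8e-07) in knockout and 0.79 log2 (SE 0.08, 1.73-fold, limma adjusted p = 3.7e-06) in wild-type cells. Hprt, which reclaims hypoxanthine and guanine, read 11.61, 11.62 and 11.60 in activated and 11.22, 11.20 and 11.12 in naive knockout cells, and 11.54 and 11.61 in activated and 11.33, 11.18 and 11.24 in naive wild-type cells. Its rises were smaller, 0.43 log2 in knockout and 0.33 in wild-type cells (limma adjusted p = 9.7e-05 and 0.0028). Uck2, a uridine-cytidine kinase, read 10.32, 10.18 and 10.19 in activated and 9.30, 9.35 and 9.26 in naive knockout cells, and 10.03 and 10.36 in activated and 9.70, 9.60 and 9.38 in naive wild-type cells. It rose by 0.93 and 0.64 log2 (limma adjusted p = 4.0e-06 and 4.2e-04) in knockout and wild-type cells. For all 3 genes every activated array lay above every naive array of its genotype.

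The salvage genes that fell in both genotypes were the deoxynucleoside kinases. Dck, deoxycytidine kinase (probe set 1439012_a_at), read 9.45, 9.66 and 9.28 in activated and 10.82, 10.88 and 10.79 in naive knockout cells, and 9.78 and 9.24 in activated and 11.01, 10.94 and 10.89 in naive wild-type cells. The groups were more than 1 log2 unit apart. The differences were -1.37 log2 (SE 0.12, 2.58-fold, limma adjusted p = 7.9e-07) in knockout and -1.44 log2 (SE 0.14, 2.71-fold, limma adjusted p = 2.5e-06) in wild-type cells, and both other probe sets fell as well. Tk1, the cytosolic thymidine kinase of dividing cells, read 6.67, 6.79 and 6.43 in activated and 7.80, 7.16 and 6.95 in naive knockout cells, and 6.32 and 6.98 in activated and 8.38, 7.85 and 7.54 in naive wild-type cells. It fell in both genotypes, with differences of -0.67 log2 (SE 0.24, 1.59-fold, limma adjusted p = 0.039) in knockout and -1.27 log2 (SE 0.27, 2.41-fold, limma adjusted p = 0.0019) in wild-type cells. Tk1 was highest on the first naive array of each genotype, as the erythroid markers were. Its knockout fall did not pass without knockout activated replicate 1, 2 or 3 (-0.69, -0.75 and -0.57), without knockout naive replicate 1 or 2 (-0.43 and -0.74), without wild-type naive replicate 2 (-0.67) or without both first naive arrays (-0.43, limma adjusted p = 0.074). Without both first naive arrays the wild-type difference was -1.04 (limma adjusted p = 0.00086). Uck1 read 8.63, 8.72 and 8.65 in activated and 8.79, 8.73 and 8.89 in naive knockout cells, and 8.55 and 8.75 in activated and 8.93, 8.96 and 8.87 in naive wild-type cells. The difference was -0.14 in knockout cells (limma adjusted p = 0.18) and -0.27 in wild-type cells (limma adjusted p = 0.021). The wild-type call of Uck1 ended without wild-type activated replicate 1 (-0.17), without wild-type naive replicate 2 (-0.25) and without both first naive arrays (-0.26).

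Among the breakdown genes the largest change of all 34 was found, and it went opposite to a close relative. Ampd3, an AMP deaminase best known from red blood cells (probe set 1422573_at), read 5.01, 4.89 and 4.66 in activated and 8.12, 7.84 and 7.85 in naive knockout cells, and 4.79 and 4.77 in activated and 8.88, 8.59 and 8.29 in naive wild-type cells. All 5 activated arrays lay below all 6 naive arrays by more than 2 log2 units. The differences were -3.08 log2 (SE 0.14, 8.47-fold, limma adjusted p = 1.8e-09) in knockout and -3.80 log2 (SE 0.15, 14-fold, limma adjusted p = 2.2e-09) in wild-type cells. The activated levels lie near the lower quartile of the arrays, where a signal above background is not shown, so these differences and folds may be lower limits of the fall. In naive cells Ampd3 followed the order of the erythroid medians in wild-type arrays, and without both first naive arrays its differences were -2.99 in knockout and -3.66 in wild-type cells. Ampd2, the AMP deaminase of most tissues, read 11.51, 11.32 and 11.42 in activated and 10.54, 10.65 and 10.51 in naive knockout cells, and 11.22 and 11.17 in activated and 10.65, 10.62 and 10.43 in naive wild-type cells. It rose by 0.85 log2 (SE 0.08, 1.80-fold, limma adjusted p = 1.1e-06) in knockout and 0.63 log2 (SE 0.09, 1.55-fold, limma adjusted p = 7.2e-05) in wild-type cells.

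The nucleotidases and adenosine deaminase had differences under 0.5 log2 in both genotypes. Nt5e encodes CD73, the surface enzyme that makes adenosine from AMP. It read 8.05, 8.70 and 8.53 in activated and 8.84, 8.79 and 9.06 in naive knockout cells, and 8.82 and 8.53 in activated and 8.64, 8.63 and 8.66 in naive wild-type cells. The knockout difference was -0.47 (limma adjusted p = 0.014) and the wild-type one 0.03 (95% interval -0.31 to 0.37, limma adjusted p = 0.9). The knockout call of Nt5e ended without knockout activated replicate 1 (-0.29) and without knockout naive replicate 3 (-0.39), and its 2 other probe sets gave -0.17 and 0.04. Nt5c3, a pyrimidine nucleotidase, read 9.45, 9.58 and 9.42 in activated and 9.68, 9.63 and 9.64 in naive knockout cells, and 9.33 and 9.55 in activated and 9.77, 9.66 and 9.63 in naive wild-type cells. Its difference was -0.17 in knockout (limma adjusted p = 0.11) and -0.25 in wild-type cells (limma adjusted p = 0.036). The wild-type call ended without wild-type activated replicate 1 (-0.14), wild-type naive replicate 1 (-0.21) or 2 (-0.26), and without both first naive arrays (-0.21). Ada, adenosine deaminase, read 7.15, 7.14 and 6.87 in activated and 7.18, 7.15 and 6.95 in naive knockout cells, and 6.64 and 7.55 in activated and 7.47, 7.16 and 7.13 in naive wild-type cells. The 2 wild-type activated arrays lay on either side of the naive ones, so the wild-type difference of -0.16 rests on which of them is used. It was 0.29 (limma adjusted p = 0.19) without replicate 1 and -0.62 (limma adjusted p = 0.01) without replicate 2.

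In the pairs of relatives compared here, activation moved 1 member up and the other down, or left it near its naive level. The change of 1 relative minus that of the other was 3.33 log2 in knockout and 2.71 log2 in wild-type cells for Ctps minus Ctps2. For Ampd2 minus Ampd3 it was 3.93 in knockout and 4.44 in wild-type cells, which may be lower limits because of the dim activated levels of Ampd3. For Prps1 minus Prps2 it was 1.61 in knockout and 1.40 in wild-type cells. It was 1.06 in knockout and 0.90 in wild-type cells for Uck2 minus Uck1, and 0.58 in knockout and 0.62 in wild-type cells for Adss minus Adssl1. The value of the Prps pair rests on the brightest probe set of Prps2 alone. Relatives outside these pairs did not all part in this way. Tk1 and Tk2 both fell in both genotypes, and Ampd1 fell as Ampd3 did. Nme2 was higher in activated cells, as Nme1 was. Its means were 13.44 in activated and 12.85 in naive knockout cells, and 13.4 and 12.79 in wild-type cells.

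**Figure D4:**
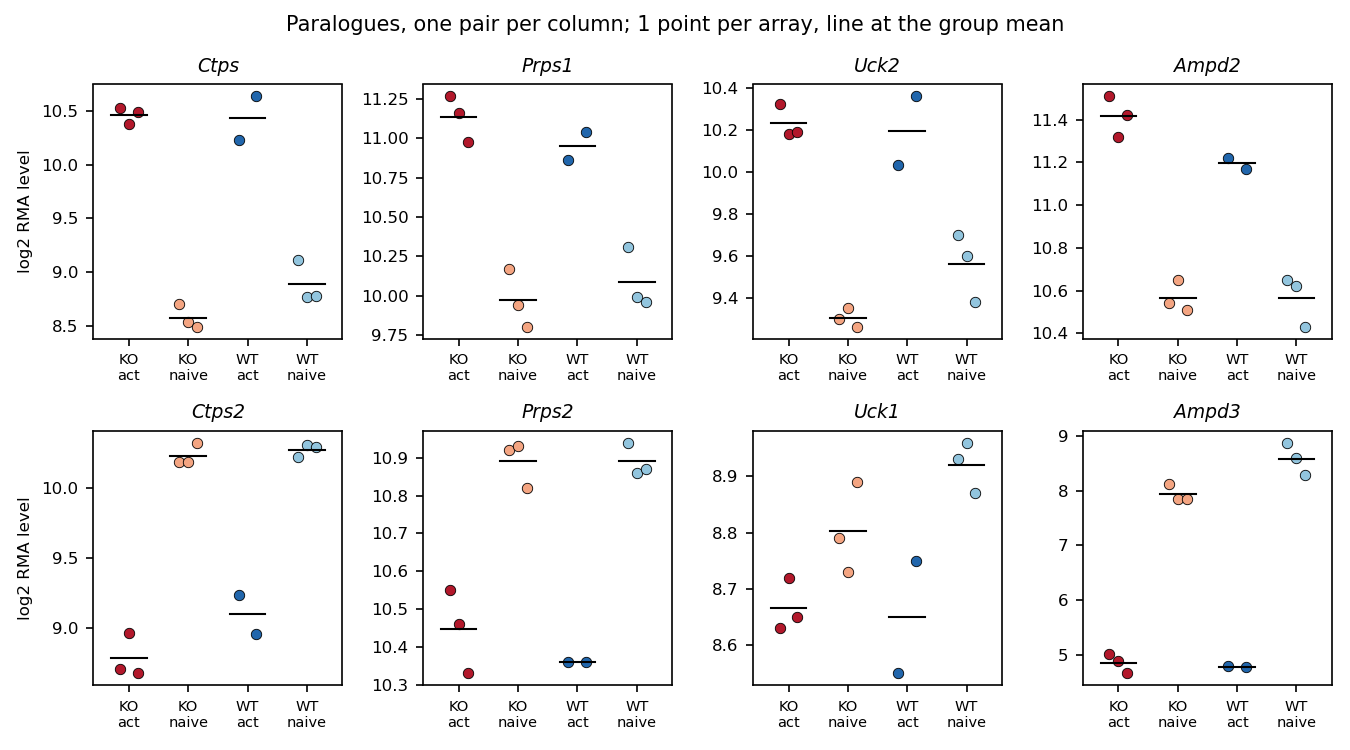
Log2 RMA levels (y axis, a separate scale in each panel) of 4 pairs of related enzymes, 1 pair per column, on each array; points are arrays and lines are group means of activated (act) and naive knockout (KO) and wild-type (WT) cells. Upper genes are higher and lower genes are lower in activated cells, with the largest fall for Ampd3, while the Uck1 panel spans less than 0.5 log2.

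Of 54 further genes of nucleotide metabolism 42 were measured. In each genotype 13 of them rose and 9 fell, with median differences of 0.01 log2 in knockout and 0.10 log2 in wild-type cells. Of all genes 20.7% rose and 22.4% fell in knockout cells, and 20.2% rose and 20.9% fell in wild-type cells. The falls of the 42 were thus near the share of all genes. Dctd, which deaminates dCMP to dUMP, rose by 2.68 log2 (SE 0.16, 6.43-fold, limma adjusted p = 2.1e-08) in knockout and 1.91 log2 (SE 0.18, 3.77-fold, limma adjusted p = 2.0e-06) in wild-type cells. It read 9.0, 8.93 and 8.81 in activated and 6.16, 6.17 and 6.37 in naive knockout cells, and 8.51 and 9.08 in activated and 7.25, 6.76 and 6.62 in naive wild-type cells. Dctpp1, which hydrolyses dCTP, rose by 1.92 and 1.62 log2 (limma adjusted p = 1.8e-09 and 4.3e-08), in knockout and wild-type cells. The equilibrative nucleoside transporter genes Slc29a2 and Slc29a3 rose as well, by 1.60 and 1.39 in knockout and by 1.78 and 1.34 in wild-type cells. Cmpk2, a mitochondrial UMP-CMP kinase induced by interferon, fell with differences of -2.67 log2 (SE 0.29, 6.36-fold, limma adjusted p = 4.3e-06) in knockout and -3.11 log2 (SE 0.32, 8.61-fold, limma adjusted p = 4.8e-06) in wild-type cells. Ampd1, the muscle AMP deaminase, fell too, with differences of -2.56 in knockout (limma adjusted p = 1.2e-10) and -2.23 in wild-type cells (limma adjusted p = 1.4e-09). The activated levels of Cmpk2 (5.3 to 5.74) and Ampd1 (5.27 to 5.56) lay below the array medians of 5.84 to 5.89. No detection call is given, so these falls may be lower limits. Cmpk2 read 9.63, 8.5 and 8.1 in naive wild-type cells, highest on the first array.

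The knockout was then set against wild type within each state. In naive cells 0 of 34 genes passed, while 27 of all 18194 genes did (0.148%), and 13 of the 34 and 2642 of all 18194 genes had an unadjusted limma p under 0.05. The differences lay mostly on 1 side: 29 of 34 were below 0, against 47.9% of all genes, with a median of -0.16 log2. In 13 genes every knockout array lay below every wild-type array, against 10.4% of all genes, and in 1, Nt5e, every knockout array lay above, against 9.94%. Ampd3 had the smallest adjusted p, at -0.65 (95% interval -0.95 to -0.35, limma adjusted p = 0.092). The differences of Pfas, Rrm1 and Dut were -0.52 (95% interval -0.79 to -0.26, limma adjusted p = 0.12), -0.66 (95% interval -1.03 to -0.28, limma adjusted p = 0.16) and -0.54 (95% interval -0.85 to -0.22, limma adjusted p = 0.16). Rrm2 had the largest, -1.01 (95% interval -1.65 to -0.37, limma adjusted p = 0.18), with overlapping groups. Beside these values, 9 of 10 erythroid markers were below 0 in the same comparison (median -1.64) and so were all 17 cell cycle genes (median -0.71), and 0 of either passed. Markers of some other cells lay mostly above 0, and 0 of them passed. These were 7 of 7 B cell (median 0.42), 6 of 8 macrophage and monocyte (0.09) and 5 of 8 neutrophil and myeloid precursor markers (0.40). By array, the B cell median was 9.02, 7.97 and 8.04 in naive knockout and 7.73, 7.82 and 8.15 in naive wild-type cells. For each of these 3 lists, only the first naive knockout array had a median above every naive wild-type array. Klf1, an erythroid transcription factor gene, read 8.07, 6.59 and 6.38 in naive knockout and 10.17, 8.60 and 7.65 in naive wild-type cells. The named probe set of the globin gene Hba-a1 lay between 4.14 and 4.64 on all arrays. The lower quartile of an array was 4.57 to 4.68, so a signal above background is not shown and its values say little about globin. Without both first naive arrays 29 of 34 were still below 0, with a median of -0.12 and an erythroid median of -1.63. Without wild-type naive replicate 3 the count of genes that passed was 6: Pfas (-0.63), Cad (-0.39), Dut (-0.65), Rrm1 (-0.82), Rrm2 (-1.29) and Ampd3 (-0.80). With array quality weights it was 8, among 1237 of all genes, and with the replicate number as a block it was 3, among 277. The part of erythroid, cycling or other cells in these differences was not tested.

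**Figure D5:**
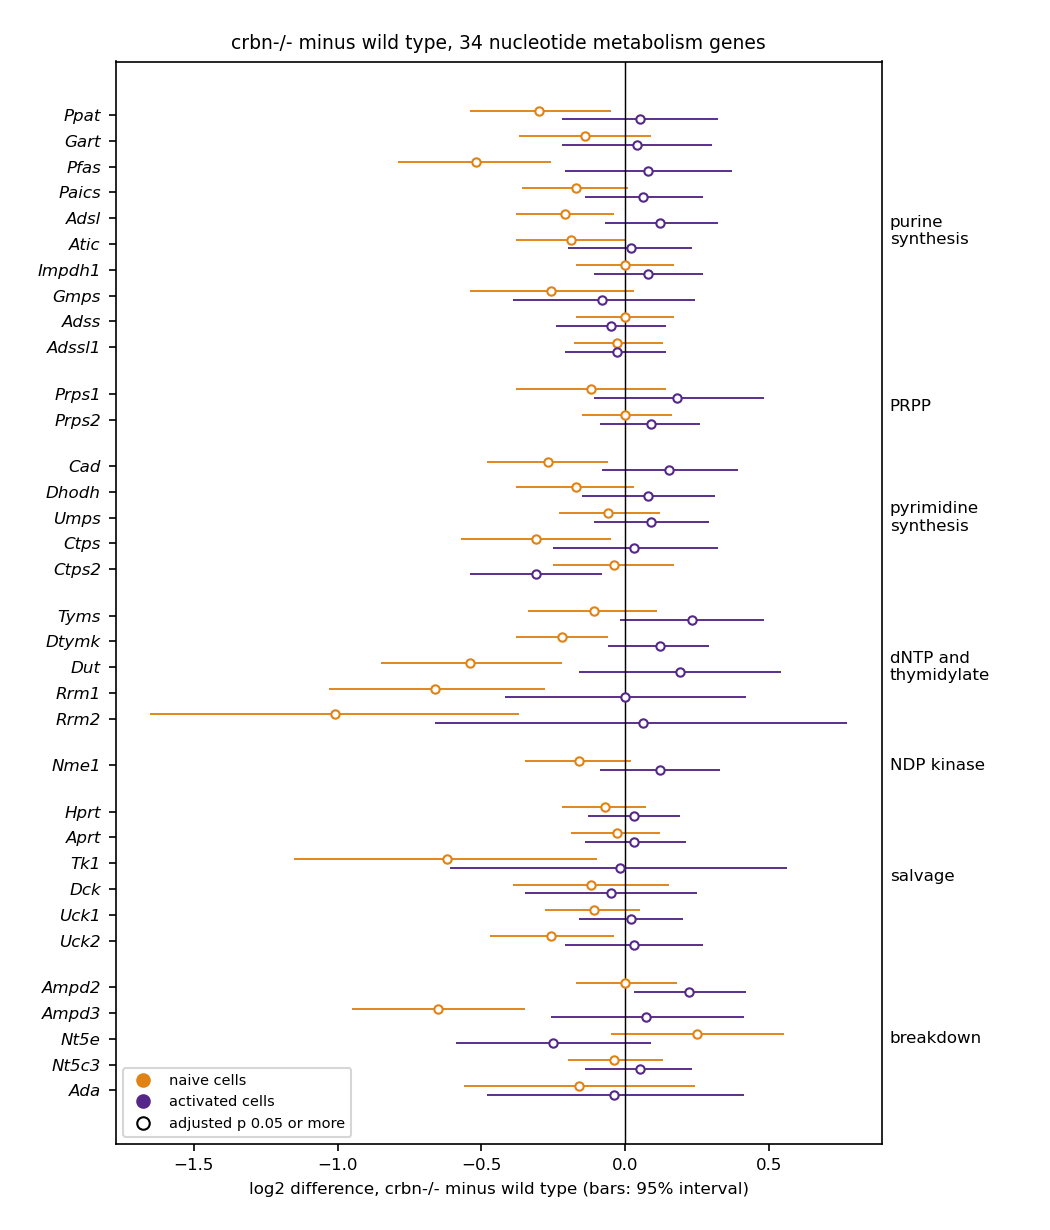
Knockout minus wild-type log2 differences (x axis) of the 34 genes, ordered by role, in naive (orange) and activated (purple) cells, with 95% intervals as bars; every point is open because 0 passed the threshold. Naive values lie left of 0 for 29 genes, with Rrm2 farthest at -1.01, and activated values lie between -0.31 and 0.23.

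In activated cells 0 of 34 genes passed, against 11 of all genes (0.0605%), and 2 of the 34 and 1256 of all 18194 genes had an unadjusted limma p under 0.05. Of the 34 differences 8 were below 0, against 56.4% of all genes. The median difference was 0.05 log2, and all 34 lay between -0.31 and 0.23. In 5 genes every knockout array lay above both wild-type arrays, against 7.37% of all genes, and in 0 below, against 12.0%. The 5 were Adsl, Cad, Dtymk, Dut and Ampd2. Ctps2 had the smallest adjusted p, at -0.31 (95% interval -0.54 to -0.08, limma adjusted p = 0.53), and Ampd2 followed at 0.22 (95% interval 0.03 to 0.42, limma adjusted p = 0.65). For the rate-setting enzymes the intervals were narrow enough to bound a change: the difference was 0.05 (95% interval -0.22 to 0.32, limma adjusted p = 0.97) for Ppat and 0.15 (95% interval -0.08 to 0.39, limma adjusted p = 0.85) for Cad. For Rrm2 the interval was wide, -0.66 to 0.77.

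Whether the response to activation differed between the genotypes was tested by the interaction, the knockout response minus the wild-type response. It passed for 0 of 34 genes and for 0 of all genes (0.0%), with 11 of 34 and 2515 of 18194 at an unadjusted limma p under 0.05. Of the 17 genes that rose in both genotypes, 16 had the larger rise in knockout cells, the exception being Adss, and so did 85.7% of all genes that rose in both. Without wild-type activated replicate 1 the count was 13 of 17, against 62.7% of such genes, and without replicate 2 it was 17 of 17, against 91.2%. The largest interaction values were 1.07 (95% interval 0.11 to 2.03, limma adjusted p = 0.33) for Rrm2, 0.73 (95% interval 0.26 to 1.20, limma adjusted p = 0.26) for Dut and 0.72 (95% interval 0.27 to 1.17, limma adjusted p = 0.26) for Ampd3, whose activated levels were dim in both genotypes. For Pfas it was 0.61 (95% interval 0.21 to 1.00, limma adjusted p = 0.26). Rrm2, Ampd3 and Dut were highest on the first naive array of each genotype, as the erythroid median was. The 10 erythroid markers had a median interaction of 1.28 log2, and 1 of them had an unadjusted limma p under 0.05. Their part in the interaction values was not tested.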

How the data were processed

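Gene expression was measured in 11 splenic T cell samples, 1 one-colour Affymetrix array each, from 100 ng of total RNA per the labels' protocols. The deposited values are log2 levels of 45101 probe sets, made by the authors with GCOS and with RMA in Partek, per the submitters' processing notes; no versions of these tools are stated. RMA sets the arrays to 1 common distribution, so a shift shared by most genes is removed, and it gives no detection call. They ranged from 2.32 to 15.0 with 0 missing. Of the probe sets 34958 carried 1 gene symbol in the platform annotation, 932 several and 9211 none, and 0 columns were left unmapped.

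A model of 4 group means over all 11 arrays was fitted to the deposited values in limma 3.58.1 under R 4.3.3 (residual degrees of freedom 7, prior 5.46). There were 5 comparisons: activation in each genotype, genotype in each state, and the interaction. Adjustment followed Benjamini and Hochberg over 18194 genes, with a threshold of 0.05. Python 3.11.15 with pandas 2.3.3 and matplotlib 3.10.9 made the tables and figures. The fit was also run on simulated data with independent noise and few changed genes. That setting is unlike these arrays, so the run does not show the error rates here. All 35 genes are named by rule, with Crbn and up to 6 further pathway genes per activation comparison. The genes, lists and tests were chosen with earlier results of these data known. Promoter windows are those of RefSeq for GRCm38.p6, with 33 of 35 genes matched. Groups follow the labels, which call the arrays biological replicates. Replicate numbers were not taken as pairs, since the labels do not tie them to a shared animal or day. The deviations of same-numbered arrays did not correlate in every pair. These deviations are taken from the mean of their own group, so they are not independent and cannot settle the pairing. Alternatives covered probe set choice, filtering, variance model, weights, scaling, replicate block and left-out arrays.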

Additional observations from a re-analysis of the deposited data

How the results depend on the processing

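With 1 probe set per gene or the mean of a gene's probe sets, 0 values changed sign among those that passed. Over every probe set, 1 gene passed in the opposite direction: a dimmer probe set of Prps2 rose by 0.43 in knockout (limma adjusted p = 5.7e-04) and 0.28 in wild-type activation (limma adjusted p = 0.026). In knockout activation 3 of 27 genes that passed lost it under some alternative (Prps2, Tk1, Nt5e) and 2 others gained it, and in wild-type activation 3 of 25 lost it (Prps2, Uck1, Nt5c3) and 5 gained it. Leaving out 1 array at a time gave 25 to 27 genes in knockout activation (7267 to 8069 of all genes) and 24 to 26 in wild-type activation (6627 to 7458 of all genes). In the naive genotype comparison it gave 0 to 6 of the 34 genes and 10 to 341 of all genes, the highest without wild-type naive replicate 3. It gave 1 to 28 of all genes in the activated one (28 without knockout activated replicate 2) and 0 to 4 for the interaction, with 0 of the 34 in both. Over all genes the naive genotype count of 27 became 15 among genes above the median level, 43 with a variance trend and robust prior, 13 with only the compared arrays, 41 with median centring, 45 over every probe set and 56 without both first naive arrays. Array quality weights gave 1237 of all genes and 8 of the 34 (Pfas, Cad, Dtymk, Dut, Rrm1, Rrm2, Uck2 and Ampd3). The activated genotype count of 11 became 7 above the median level, 2 with the compared arrays, 3 with array weights and 19 over every probe set. With the replicate number as a block, the naive count was 277 of all genes and 3 of the 34 (Rrm1, Rrm2, Ampd3), the interaction count was 1 of all genes, and Rrm2 passed in knockout activation (limma adjusted p = 0.029). The check of these numbers was mixed: deviations of same-numbered arrays correlated between -0.299 and 0.391 over 15 pairs, 7 pairs exceeded 0.1, and the 3 naive pairs of knockout and wild-type arrays gave 0.391, 0.016 and 0.314. Of 11 arrays 7 correlated best with an array of their own number, a hint from the data and not from the design. The causes were not tested. Groups of 2 and 3 arrays, without a detection call, limit what a small difference or a dim probe set such as that of Tyms can show.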

Other observations

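The genes named here belong to the further genes of nucleotide metabolism. Tk2 is among those named by rule for knockout activation. The others were singled out after their values were seen, so they stand for no group. Tk2, the mitochondrial thymidine kinase, fell with differences of -1.49 log2 (SE 0.09, 2.80-fold, limma adjusted p = 3.5e-08) in knockout and -1.28 log2 (SE 0.11, 2.43-fold, limma adjusted p = 6.9e-07) in wild-type cells. Dguok, the mitochondrial deoxyguanosine kinase, read 7.5, 7.65 and 7.46 in activated and 8.78, 8.64 and 8.41 in naive knockout cells, and 7.58 and 7.82 in activated and 8.66, 8.58 and 8.66 in naive wild-type cells, and fell in both (limma adjusted p = 9.1e-07 and 1.5e-05). Rrm2b, the p53-induced small subunit of ribonucleotide reductase, fell with differences of -0.71 in knockout and -0.49 in wild-type cells (limma adjusted p = 7.6e-07 and 9.2e-05). Samhd1, which hydrolyses deoxynucleotides, had differences of -0.33 in knockout and 0.10 in wild-type cells and passed in knockout but not in wild-type cells (interaction, limma adjusted p = 0.32). The mitochondrial nucleotidase gene Nt5m passed in neither genotype, with a difference of 0.10 in each. Adk, adenosine kinase, rose by 1.17 log2 in knockout and 1.03 in wild-type cells (limma adjusted p = 4.5e-08 and 7.1e-07). Guk1, guanylate kinase, and Slc29a1, a nucleoside transporter, rose too, by 0.89 and 1.43 in knockout and by 0.71 and 1.16 in wild-type cells.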
